A study of Mus musculus with 10 samples.

Results

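Mesenchymal cells of the embryonic mouse pancreas with transcripts of Nkx2-5 and Tlx1, a splenic type of mesenchyme by its marker genes, are described here: 493 cells, 3.68% of 13386 mesenchymal cells in 5 libraries. The cells were chosen by measured values: at least 200 detected genes, at least 2 unique molecular identifiers (UMIs, counted transcript molecules) of Nkx2-5 and Tlx1 together, at least 3 UMIs of the collagens Col3a1, Col1a1 and Col1a2, and no UMI of the epithelial gene Epcam. All other cells with at least 3 collagen UMIs in the same library, with or without Epcam, are called other mesenchyme. Levels of Nkx2-5, Tlx1, these collagens and Epcam are therefore given as a description, with no test.

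The study profiled dissociated pancreata of mouse embryos by droplet single-cell RNA sequencing. Swiss Webster embryos gave an E12.5 library, a pair of E14.5 libraries (batch 1 and batch 2) and an E17.5 library, from live cells and with the version 1 kit. The E12.5 and E17.5 libraries also belong to batch 2, which was collected on another day than batch 1. Fev-Cre;ROSA26mTmG embryos on a C57BL/6J background gave a further E14.5 library with the version 2 kit (Fev-Cre here). In these, Cre expressed from Fev, a gene of endocrine progenitors, switches a membrane tdTomato reporter to membrane GFP, and sorted GFP-positive cells were loaded with GFP-negative, tdTomato-positive cells. Swiss Webster libraries of the version 2 kit (v2 E12.5, v2 E14.5 and v2 E17.5), depleted of cells with surface CD140a, the product of Pdgfra, did not choose the cells. No embryo was treated, and each library pooled pancreata of several embryos. P-values therefore measure the spread of a class difference between libraries. This spread mixes differences of pool with those of stage, strain, kit and sorting. The 5 choosing libraries held 15671934 to 77996305 UMIs.

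The spleen forms from mesenchyme beside the dorsal pancreas before the organs separate. Tlx1 and Nkx2-5 are homeodomain transcription factors known for their part in forming the spleen, and Nkx2-3, Wt1, Tcf21 and Barx1 also act in this mesenchyme. Of the other genes that mark the cells, Slc40a1 encodes the iron exporter ferroportin, Cxcl13 a chemokine that draws B cells into lymphoid organs, and Kazald1 a secreted protein related to the insulin-like growth factor binding proteins. These markers were picked with results of the same libraries known.

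The bases before a RefSeq start are shown for the genes that chose the cells and for Kazald1, which lies beside Tlx1. Each of these starts lies inside the span that RefSeq gives for its gene, not at the outer end. Each line holds 250 bases up to a RefSeq start, 5′ to 3′ on the gene's strand, from RefSeq's table for build GRCm38.p6, with AAGTG, a core bound by NKX2 factors, or its reverse complement CACTT in capitals.
Nkx2-5 (chr17:26841566-26841815, minus strand): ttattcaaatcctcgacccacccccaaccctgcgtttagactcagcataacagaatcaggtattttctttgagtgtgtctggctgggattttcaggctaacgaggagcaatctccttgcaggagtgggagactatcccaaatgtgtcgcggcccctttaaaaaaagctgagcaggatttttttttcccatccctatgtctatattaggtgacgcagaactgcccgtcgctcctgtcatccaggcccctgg
Tlx1 (chr19:45150465-45150714, plus strand): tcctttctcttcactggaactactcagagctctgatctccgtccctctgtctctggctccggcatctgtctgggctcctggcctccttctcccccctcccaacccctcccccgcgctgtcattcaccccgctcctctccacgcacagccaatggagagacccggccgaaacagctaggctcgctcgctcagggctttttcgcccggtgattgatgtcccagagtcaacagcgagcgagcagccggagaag
Kazald1, start 1 (chr19:45074991-45075240, plus strand): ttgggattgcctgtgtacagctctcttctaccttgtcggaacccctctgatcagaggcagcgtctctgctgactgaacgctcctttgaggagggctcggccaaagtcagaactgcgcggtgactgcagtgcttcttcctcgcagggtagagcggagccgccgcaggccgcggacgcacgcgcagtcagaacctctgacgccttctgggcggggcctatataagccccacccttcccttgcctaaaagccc
Kazald1, start 2 (chr19:45075837-45076086, plus strand): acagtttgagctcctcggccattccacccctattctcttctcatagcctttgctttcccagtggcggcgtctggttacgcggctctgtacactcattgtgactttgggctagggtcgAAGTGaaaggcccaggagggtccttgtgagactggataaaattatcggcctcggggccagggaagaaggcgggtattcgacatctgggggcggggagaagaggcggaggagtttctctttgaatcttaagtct
A match was found in 1 of these windows, 133 bases before start 2 of Kazald1, and in 40.7% of all 32851 promoter windows of that length. It is a match of letters, not a site. Of the 5 marker genes, 4 are in the promoter table, and Slc40a1 is named only.

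With all UMIs counted, the cells were most frequent at E12.5. They were 281 of 3406 mesenchymal cells there (8.25%, exact 95% binomial interval 7.35 to 9.23%), 52 of 1794 in E14.5 batch 1 (2.90%, 2.17 to 3.78%), 97 of 3501 in E14.5 batch 2 (2.77%, 2.25 to 3.37%), 57 of 3421 in Fev-Cre (1.67%, 1.26 to 2.15%) and 6 of 1264 at E17.5 (0.475%, 0.174 to 1.03%). E12.5 lay above the other libraries, the E14.5 batches overlapped and E17.5 was lowest. Intervals cover counting error only, and with 1 library at E12.5 and at E17.5 stage was not tested.

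A gate of 2 UMIs is passed more easily by deeply sequenced cells, so each cell was also thinned to 2000 UMIs and the gate applied again. The shares were then 2.60% (1.94 to 3.42%) at E12.5, 2.09% (1.37 to 3.04%) and 1.19% (0.841 to 1.64%) in the E14.5 batches, 0.214% (0.0696 to 0.499%) in Fev-Cre and 0.300% (0.0620 to 0.875%) at E17.5. At equal depth the intervals of E12.5 and E14.5 batch 1 overlapped, as did those of the E14.5 batches, of E14.5 batch 2 and E17.5, and of Fev-Cre and E17.5. Mesenchymal cells too shallow to be thinned were left out: 117 of E12.5, 428 of batch 1, 179 of batch 2, 0 of Fev-Cre and 232 of E17.5. The collagen rule was applied again too, which left 1921, 1246, 3103, 2333 and 999 mesenchymal cells in that order. Of these, 50, 26, 37, 5 and 3 were gated, so the thinned shares reflect both the gate and the collagen rule.

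**Figure D1:**
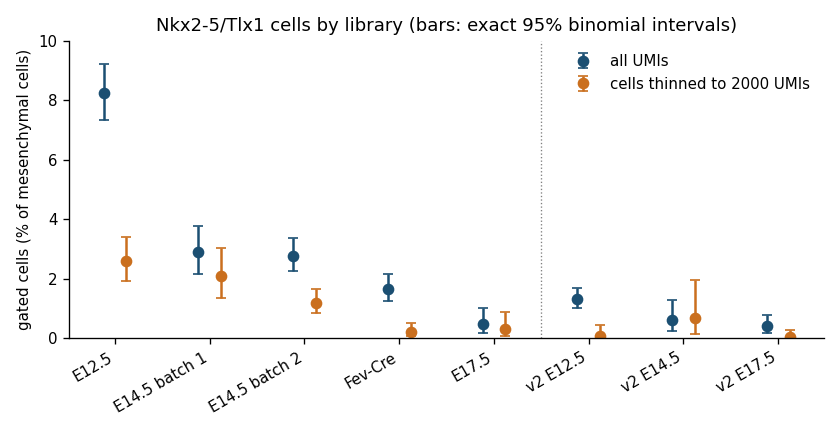
Nkx2-5/Tlx1 cells as a percentage of mesenchymal cells (vertical axis) in each library (horizontal axis), with all UMIs and with cells thinned to 2000 UMIs; bars are exact 95% binomial intervals. The E12.5 share goes from 8.25% to 2.60% when depth is made equal, and the libraries right of the dotted line did not choose the cells.

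Epithelial cells carried almost none of the gate transcripts. Of 5649 cells with Epcam and few collagen UMIs in the 5 libraries, 25 had a UMI of Nkx2-5 or Tlx1 and 1 had 2 or more, at median depths of 3988 to 9480 UMIs between libraries, against 2038 to 7249 in the gated cells. In cells thinned to 2000 UMIs, 2.33% to 7.80% of the other mesenchyme but 0% to 0.0866% of these epithelial cells had such a UMI. The rule also left out 28 collagen-positive cells that carried Epcam with 2 or more gate UMIs, and 50 gated cells with too few collagen UMIs, 42 of them at E12.5.

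Both genes were detected in 245 of the 493 cells (49.7%), Nkx2-5 alone in 155 and Tlx1 alone in 93. Nkx2-5 stood at 371, 479, 434, 133 and 896 CPM (the usual depth-scaled count: the gene's UMIs over all UMIs of the class in that library) in the gated cells, giving E12.5 first, then the E14.5 batches, Fev-Cre and last E17.5, against 22.4, 11.1, 7.87, 4.48 and 4.55 in the other mesenchyme. Tlx1 stood at 177, 451, 217, 202 and 224 CPM against 18.3, 15.5, 11.6, 8.58 and 6.06, in the same library order, which is kept below. The gate sets these differences, but not the balance of its genes: Tlx1 alone was seen in 10.3% of the E12.5 cells, 28.8% of batch 1, 21.6% of batch 2 and 49.1% (28 of 57) in Fev-Cre, where 7 cells had Nkx2-5 alone.

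The gated cells overlapped the mesenchyme with 2 or more UMIs of Barx1 and Tcf21 in sum, which either gene can fill alone. As given below, Tcf21 stood higher in the gated cells and Barx1 lower, so this overlap shows no shared Barx1 level. Of the 493, 330 (66.9%) also had 2 or more UMIs of those genes. By library these were 77.9%, 53.8%, 63.9%, 29.8% and, from 4 of 6 cells, 66.7%. The other mesenchyme without Epcam stood at 69.1%, 35.2%, 55.9%, 32.1% and 24.9%. The share thus lay above that background in 4 of 5 libraries and below it in Fev-Cre, with no test. It was also below in v2 E12.5 (30.6% against 46.2%) and v2 E14.5 (0% of 7 cells against 25.7%). In v2 E17.5 it was above (33.3% of 9 cells against 15.4%). Tcf21 stood lower in version 2 kit libraries. In Epcam-negative mesenchymal cells without a gate UMI it was at 593 CPM at E12.5, 57.7 in Fev-Cre and 21.5 in v2 E12.5. Its part in these shares was not tested. Of the 493 gated cells, 8 (1.62%) had 2 or more of the mesothelial genes Upk3b, Upk1b and Lrrn4. Their median depth was 5281 UMIs against 4255 in the other mesenchyme at E12.5, 2439 against 2596 and 4008 against 4017 in the E14.5 batches, 7249 against 6679 in Fev-Cre, and 2038 against 2852 at E17.5. The gated cells were thus deeper at E12.5 and shallower at E17.5. Pairs of version 1 libraries shared 10 to 24 cell barcodes, pairs of version 2 libraries 105 to 182, and pairs across kits 0. Haemoglobin took 1.44%, 0.0646%, 2.98%, 0.000404% and 0.410% of the UMIs of the gated cells and 0.835%, 0.607%, 2.73%, 0.00737% and 6.34% of those of the other mesenchyme.

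Slc40a1, the iron exporter, was higher in the gated cells. It stood at 409, 1167, 457, 192 and 1045 CPM against 123, 72.5, 26.3, 11.5 and 22.0. No library of gated cells overlapped a library of other mesenchyme. The log2 fold change was 3.30 ± 0.26 (SE, edgeR quasi-likelihood test on UMI sums of the 4 libraries with 10 or more cells in each class, adjusted p = 4.46e-08), and E17.5, with 6 cells, was left out of the fit. With cells thinned to 2000 UMIs, 50.5%, 61.0%, 40.6% and 19.3% of the gated cells had a UMI of it, against 17.7%, 7.70%, 4.34% and 2.41% of the other mesenchyme and 6.74%, 4.33%, 5.70% and 3.03% of the epithelial cells.

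Kazald1 was higher in the same way. It stood at 275, 451, 477, 176 and 970.2 CPM against 60.8, 57.5, 53.7, 17.1 and 39.1, and the classes again did not overlap. The log2 fold change was 2.81 ± 0.15 (edgeR, adjusted p = 3.79e-11). A UMI of it was found in 42.6%, 34.1%, 47.9% and 17.54% of the thinned gated cells, in 10.1%, 9.58%, 9.18% and 3.80% of the other mesenchyme and in 0.343% to 0.777% of the epithelial cells of the 4 libraries.

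Cxcl13 marked the cells in some libraries only. In the E14.5 Swiss Webster batches it stood at 542 and 434 CPM against 109 and 136. At E12.5 the order was the opposite, 9.01 CPM (exact 95% Poisson interval 4.93 to 15.1) against 36.3, and in Fev-Cre it was 20.2 CPM (9.68 to 37.1) against 47.0. At E17.5 it was 299 CPM (81.3 to 764) against 174, from 4 UMIs that all lay in 1 of the 6 cells. The log2 fold change of Cxcl13 over the 4 libraries was 0.76 ± 0.37 and did not pass (edgeR, adjusted p = 0.333). Slc40a1 and Kazald1 thus lay above the other mesenchyme in all 5 libraries, and Cxcl13 in the E14.5 batches, with no direction to be read from the 1 cell of E17.5. The markers were picked with these libraries known, so their levels here are a description and no test of the splenic label.

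**Figure D2:**
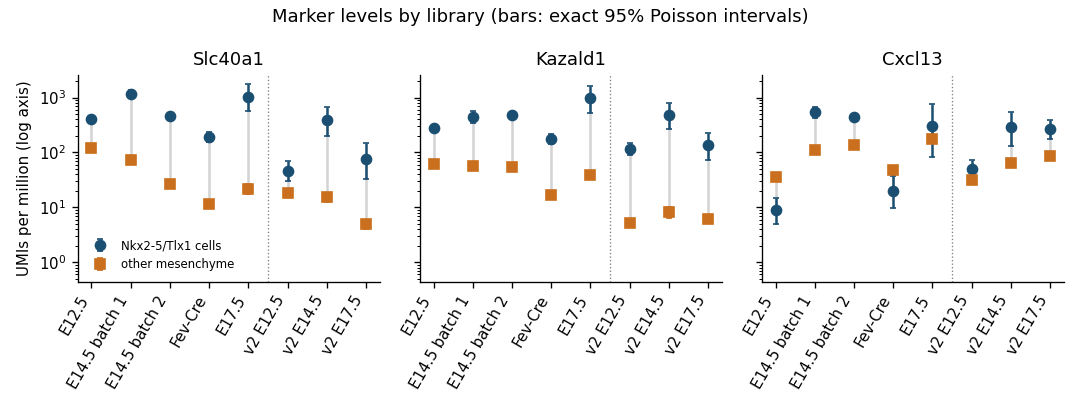
CPM (vertical axis, log scale) of Slc40a1, Kazald1 and Cxcl13 in Nkx2-5/Tlx1 cells and in other mesenchyme of each library (horizontal axis), with exact 95% Poisson intervals. Slc40a1 and Kazald1 lie higher in the gated cells of each library, and Cxcl13 lies lower in them at E12.5 (9.01 against 36.3) and in Fev-Cre (20.2 against 47.0).

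Slc40a1 and Kazald1 stepped up across the threshold of the gate, and so did Cxcl13 in the E14.5 batches. At E12.5 Cxcl13 stepped down across it. In Fev-Cre Cxcl13 went from 15.8 to 19.3 CPM, both below the 67.4 of cells without a gate UMI. Among Epcam-negative mesenchymal cells of E12.5, Slc40a1 stood at 105 CPM in 2499 cells without a gate UMI, 189.7 in the 551 cells with 1, just outside the gate, 309.7 in the 150 with 2, just inside it, and 637 in the 63 with 4 or more. The same steps for Slc40a1 were 52.9, 369, 873 and 1622 CPM in E14.5 batch 1 and 23.4, 56.9, 275 and 862 in E14.5 batch 2. Kazald1 went through 48.1, 113, 199.7 and 414 CPM at E12.5 and 49.4, 126, 294 and 763 in E14.5 batch 2. Barx1, a factor of stomach mesenchyme and, as named above, of the mesenchyme that forms the spleen, stepped down at E12.5. It went through 166, 139, 82.2 and 37.1 CPM. Cells with 1 gate UMI, which count as other mesenchyme, thus lay between those with 0 and those with 2 for these 3 genes in the libraries given. Cxcl13, with 0, 1, 2, 3 and 4 or more gate UMIs, stood at 123, 313, 507, 743 and 135 CPM in E14.5 batch 1 and 135, 159, 259, 1230.2 and 423 in E14.5 batch 2, with higher levels at each step up to 3 UMIs and lower ones with 4 or more, in 5 and 26 cells. It stood at 42.2, 17.6, 6.32, 5.19 and 18.6 CPM at E12.5 and 67.4, 15.8, 19.3, 9.94 and 35.8 in Fev-Cre.

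**Figure D3:**
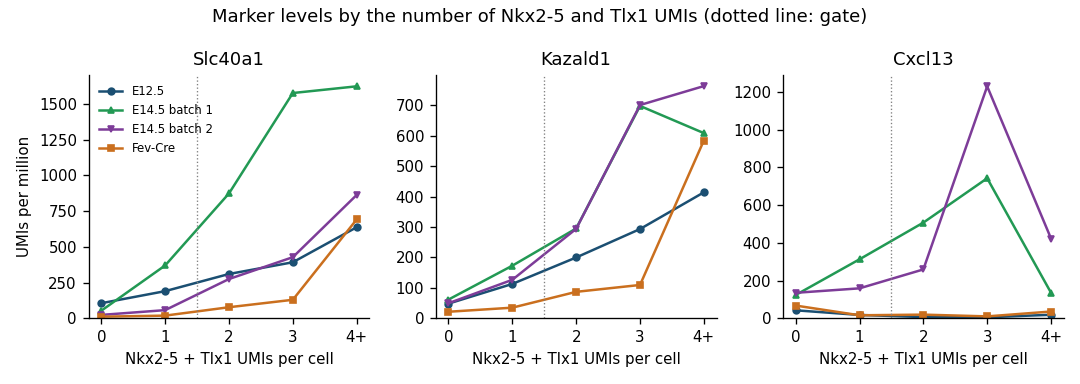
CPM (vertical axis) of Slc40a1, Kazald1 and Cxcl13 by the number of Nkx2-5 and Tlx1 UMIs of a cell (horizontal axis) in 4 libraries; the dotted line marks the gate. At E12.5, Slc40a1 goes from 105 without a gate UMI to 637 with 4 or more, while Cxcl13 goes from 42.2 to 18.6.

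Kazald1 lies beside Tlx1 in the genome. In RefSeq GRCm38.p6, Kazald1 spans chr19:45074962-45079289 and Tlx1 chr19:45150092-45156943, 70.8 kb apart. Lbx1, 75.7 kb on the other side of Tlx1, had 0 UMIs in the gated cells and 4 in the other mesenchyme. Of the 6 other genes tested within 250 kb of Tlx1, Kazald1 was called and Sema4g, Mrpl43, Lzts2, Sfxn3 and Btrc were not, with log2 fold changes of -0.05 ± 0.58, -0.03 ± 0.13, 0.28 ± 0.19, -0.58 ± 0.23 and 0.26 ± 0.20 (edgeR, adjusted p = 0.205 to 0.994). Nkx2-5 lies at chr17:26838664-26844988, and none of the genes tested within 250 kb of it was called; they ranged from -1.19 (Itpr3) to 0.37 (Kifc5b) on the log2 scale.

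Across all genes, 52 of 11016 tested (0.472%) were higher in the gated cells than in the other mesenchyme and 234 (2.12%) were lower. Called here means an adjusted p under 0.05 and at least 2-fold in edgeR's test with each library as a block, with the genes of the rule left out. Of the 52, 47 were higher in each of the 4 libraries tested and 24 were also higher in the 6 cells of E17.5. The calls came from the same 4 libraries, and the E17.5 cells held 13399 UMIs in all. Shares over all tested genes are not given for these counts, so neither is a measure of repetition. Without E12.5, 99 genes were called higher and 265 lower, and without E14.5 batch 2, 25 and 169. Without the library block, 5 were called higher and 0 lower.

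The 12 genes with the largest fold upward include surface proteins, secreted signals and a transcription factor. Mme, a membrane peptidase, stood at 4.51, 83.3, 22.8 and 12.1 CPM against 0.640, 3.04, 1.06 and 0.957, a log2 fold change of 3.95 ± 0.47. Apela, a peptide ligand of the apelin receptor, stood at 25.7, 76.4, 59.4 and 40.4 CPM against 9.04, 3.57, 2.71 and 2.46 (3.29 ± 0.41). Frzb, a secreted WNT antagonist, stood at 20.0, 27.8, 36.5 and 16.1 CPM against 2.42, 3.57, 2.18 and 2.22 (3.23 ± 0.36). The libraries of the classes did not overlap for any of these 3 genes. Robo2, a receptor for SLIT guidance proteins, stood at 52.1, 69.5, 61.7 and 28.3 CPM against 8.61, 7.86, 4.04 and 4.62 (2.98 ± 0.27), also without overlap.

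Irf8, a transcription factor known from myeloid and B cells, stood at 7.72, 6.95, 18.3 and 6.06 CPM against 0.569, 3.57, 1.32 and 1.95 (2.82 ± 0.55), from 24 UMIs. The pan-leukocyte gene Ptprc had 0 UMIs in the gated cells of the 5 libraries, and 8 immune markers summed to 20.8 to 50.3 CPM in the gated cells and 42.8 to 59.5 in the other mesenchyme of the 4 libraries tested. Without E14.5 batch 2, Irf8 did not pass (2.47, edgeR, adjusted p = 0.0664). Grm7, a glutamate receptor, had 17 UMIs in the gated cells (3.26 ± 0.61).

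Fam151a, 6030408B16Rik and Clca3a1 had log2 fold changes of 3.24 ± 0.39, 2.53 ± 0.31 and 2.23 ± 0.32, and Slc40a1, Kazald1 and Cyp26b1 complete the 12. Adjusted p ran from 3.79e-11 for Kazald1 to 0.00241 for Irf8 (edgeR), and being higher in 4 of 4 libraries was part of how the 12 were chosen. Other genes called higher, named after their values were seen, were Itga8, an integrin subunit of mesenchyme (2.13 ± 0.26), Fabp7, a fatty acid binding protein (1.96 ± 0.31), the related membrane proteins Bves and Popdc3 (1.54 ± 0.24 and 1.76 ± 0.37), the neuropeptide gene Npy (1.62 ± 0.43) and Col13a1, a transmembrane collagen (1.51 ± 0.19).

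**Figure D4:**
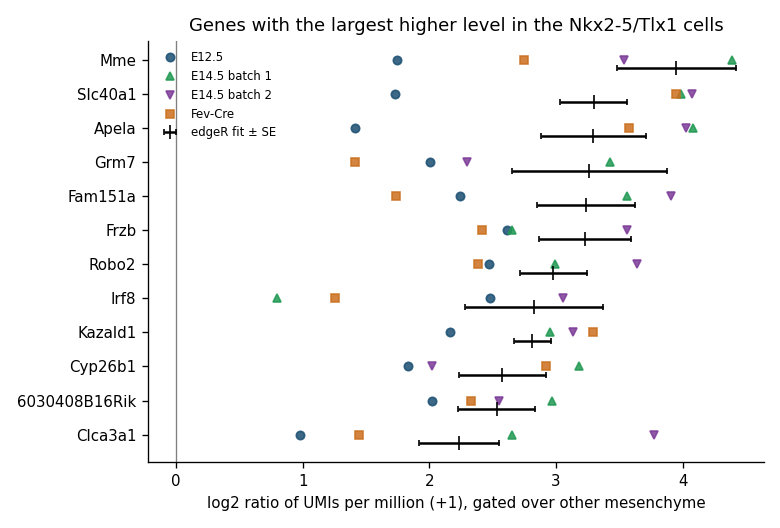
Log2 ratio of CPM with 1 added (horizontal axis) between Nkx2-5/Tlx1 cells and other mesenchyme for the 12 genes of largest fold upward (vertical axis) in each of 4 libraries, with the edgeR log2 fold change and its SE in black. The genes were chosen to lie above 0 in these 4 libraries, and the points show the spread between them.

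The 12 genes of largest fold downward were Vnn1, Tm4sf5, Gc, Gata4, Bicd1, Krt15, Cxadr, Epha1, Ccdc92, Mt2, Prph and Kcna1, each with 0 to 9 UMIs in the gated cells of the 4 libraries. Vnn1 had 0 UMIs there and was at least 4.05-fold lower, against a floor of 3 counts over the group. Vnn1 thus passed the count filter through the other mesenchyme only, as did Gata4, with 1 UMI in the gated cells. With so few UMIs, the rank of these 12 genes is no result about the gated cells. Only the gated cells had to lack Epcam, so the test was repeated against other mesenchyme without Epcam, where 186 of 10651 genes (1.75%) were called lower. Of the 12, Tm4sf5, Krt15, Cxadr, Epha1 and Prph were called there too, Mt2 did not pass (-0.73), and the other 6 were too low to be tested. Tm4sf5, a tetraspanin-like membrane protein, stood at 0.644, 0, 4.57 and 2.02 CPM against 11.6, 25.4, 61.6 and 41.6 and was at -4.09 against Epcam-negative cells.

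Mesothelial genes were lower as a group. The other mesenchyme includes mesothelial cells, 1055 in the 5 libraries by a gate given below, and no fit against it left them out. Of 8 listed, 7 were tested and 7 called lower, with a median log2 fold change of -2.61 against -0.02 over all genes tested, and 7 also against Epcam-negative cells. Cav1, a caveolar coat protein, stood at 5.15, 0, 22.8 and 24.2 CPM against 45.5, 110.4, 201 and 122, with no overlap between the classes. Upk3b, a uroplakin of mesothelium, stood at 3.86, 0, 48.0 and 6.06 CPM against 33.2, 88.4, 148 and 99.6, where the E14.5 batch 2 gated cells overlapped the E12.5 other mesenchyme. Msln had 0 UMIs in the gated cells of these libraries.

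Of the organ field transcription factors, 14 were tested, 0 were called higher and 6 lower, with a median of -0.43. Over all genes tested, 0.472% were called higher and 2.12% lower, and the median was -0.02. These shares hold for each list below that is set against the other mesenchyme. Gata4, among the 6, had 1 UMI in the gated cells. Barx1 stood at 70.2, 90.3, 61.7 and 74.7 CPM against 159, 169.5, 210.4 and 112 (-1.17 ± 0.15). Isl1, a LIM homeodomain factor of pancreatic mesenchyme and endocrine cells, was at -1.48 ± 0.17, Foxf1, a forkhead factor of gut mesenchyme, at -1.88 ± 0.49 and Gata6, a zinc finger factor of endoderm and mesoderm, at -1.93 ± 0.23. Barx1, Isl1, Foxf1 and Gata6 were also called against Epcam-negative cells, where Gata4 was not tested. The median was -0.15 with 4 called lower without E12.5, and -0.12 with 5 called lower against Epcam-negative cells.

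Nkx2-3, Tcf21 and Wt1 of the same list passed the adjusted p below 2-fold, and are named after their values were seen. Nkx2-3, a homeodomain factor of spleen and gut mesenchyme, stood at 207, 153, 123, 80.7 and 74.6 CPM against 137, 55.9, 62.6, 43.7 and 60.4 (0.82 ± 0.13, edgeR, adjusted p = 0.000329). Tcf21, a basic helix-loop-helix factor, stood at 694, 653, 639.6, 82.8 and 1343 CPM against 571, 259, 334, 41.3 and 253 (0.76 ± 0.12, edgeR, adjusted p = 0.000243). Both were higher in 4 of 4 libraries tested, though levels of different libraries overlapped. At E17.5 Tcf21 was higher too, and Nkx2-3 rested on 1 UMI, which carries no direction. Wt1, a factor of mesothelium and spleen, stood at 167, 271, 215, 92.9 and 522 CPM against 96.6, 120.4, 172, 98.8 and 85.6, lower in Fev-Cre (0.50 ± 0.14, edgeR, adjusted p = 0.0402), and also lower in all 3 v2 libraries. Meis1 and Meis2, cofactors of homeodomain proteins, did not pass (0.19 ± 0.14 and -0.09 ± 0.10).

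Hox genes give position along the body axis. Of 28 listed, 15 were tested, 0 were called higher, 3 were called lower, and 1 lay above 0, with a median of -0.75. Over all genes tested, 46.5% lay above 0, 2.12% were called lower and the median was -0.02. Hoxc5 stood at 3.86, 13.9, 9.14 and 16.1 CPM against 20.1, 23.0, 31.0 and 23.7 (-1.54 ± 0.32) and Hoxb6 at 30.3, 27.8, 20.6 and 18.2 CPM against 66.6, 44.8, 63.8 and 29.5 (-1.15 ± 0.20), each lower in 4 of 4 libraries. Hoxc4 was at -1.26 ± 0.25. Hoxa5 passed the adjusted p below 2-fold (-0.75 ± 0.16), and Hoxb4, the Hox gene with the most UMIs in the gated cells, did not pass (-0.02 ± 0.16). Without E12.5 the median was -0.48 and 1 gene was called.

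Retinoic acid is made from retinal by Aldh1a2 and degraded by Cyp26 enzymes. Of 11 genes of this pathway tested, 1 was called higher and 5 lower, with a median of -1.08 (all genes tested: 0.472%, 2.12% and -0.02). Cyp26b1, the degrading enzyme, stood at 21.2, 48.6, 20.6 and 28.3 CPM against 5.26, 4.47, 4.30 and 2.87 (2.57 ± 0.34), with no overlap between the classes. Aldh1a2 stood at 6.44, 27.8, 27.4 and 18.2 CPM against 13.3, 49.8, 78.6 and 66.9 (-1.47 ± 0.23), lower in 4 of 4 libraries. The receptor gene Rarb was at -1.16 ± 0.22, the binding protein genes Crabp1, Crabp2 and Rbp4 at -1.08 ± 0.14, -1.21 ± 0.31 and -1.92 ± 0.33. Rdh10, which makes retinal from retinol, passed the adjusted p below 2-fold upward (0.81 ± 0.15). Against Epcam-negative cells the counts were again 1 and 5, with Dhrs3 in place of Rbp4. With cells thinned to 2000 UMIs, Cyp26b1 did not pass (1.82, edgeR, adjusted p = 0.384) and 2 genes were called lower. In DESeq2, an alternative test, 3 were called lower, and without the library block 0.

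Of 13 genes of the insulin-like growth factor axis, Kazald1 was called higher and Igfbp2, Igfbp5, Igfbp6, Igfbp7 and Igf1 lower, with a median of -0.27. All genes tested gave 0.472% higher and 2.12% lower, with a median of -0.02. The same counts of the axis held against Epcam-negative cells. Igfbp2, a binding protein, stood at 69.5, 55.6, 70.8 and 115 CPM against 174, 328, 403 and 218 (-1.64 ± 0.18). Igf1, a ligand, stood at 43.8, 83.3, 139 and 174 CPM against 167, 337, 339 and 254 (-1.37 ± 0.16). Both were lower in 4 of 4 libraries. Igf2, the other ligand, did not pass (-0.20 ± 0.09).

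In the iron list, 1 of 10 genes tested was called, Slc40a1, and the median was 0.07. The ferritin chain genes Fth1 and Ftl1, which store iron, were at -0.03 ± 0.07 and -0.14 ± 0.06, with Fth1 at 2269, 1674, 2807 and 1112 CPM against 2180.1, 1782, 2719.8 and 1094. Heph, a ferroxidase that works with ferroportin, was at 0.60 ± 0.34, and Hmox1, which frees iron from haem, at -0.14 ± 0.25.

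Of 14 stromal organiser genes, which build lymphoid tissue, 9 were tested, Kitl was called higher and Pdpn lower, with a median of 0.01. Kitl, the ligand of the receptor KIT, stood at 33.5, 83.3, 68.5 and 36.3 CPM against 11.4, 33.9, 24.4 and 11.7 (1.47 ± 0.19), higher in 4 of 4 libraries. Pdpn, podoplanin, stood at 0.644, 6.95, 9.14 and 4.04 CPM against 13.0, 27.5, 42.3 and 24.2 (-2.79 ± 0.38), with no overlap. Cxcl12 did not pass (-0.47 ± 0.17), with 151, 722, 697 and 194 CPM against 451, 669, 678 and 207. Ccl19 had 0 UMIs in the gated cells of the 5 libraries.

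Of 14 WNT genes tested, Frzb was called higher and Rspo1, Sfrp2 and Lef1 lower. Rspo1, a WNT agonist, stood at 1.29, 0, 6.85 and 2.02 CPM against 10.1, 29.8, 33.8 and 23.9 (-2.99 ± 0.42), and Sfrp2, a secreted WNT modulator, at 19.3, 132, 73.1 and 44.4 CPM against 43.0, 264, 223 and 109.5 (-1.35 ± 0.14). Of 14 BMP and TGF-beta genes, Tgfbi, a matrix protein induced by TGF-beta, was called higher (1.09 ± 0.18) and the ligand gene Bmp4 lower (-1.38 ± 0.29); against Epcam-negative cells Tgfbi stayed under 2-fold (0.87). Of 10 FGF genes, the ligand gene Fgf9 was called lower (-2.78 ± 0.37). Of 7 hedgehog genes 0 were called, and the co-receptor gene Gas1 passed the adjusted p below 2-fold (-0.56 ± 0.09).

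Of 12 genes of PDGF, VEGF and related signals, Vegfa was called higher (1.30 ± 0.32), Figf, which encodes VEGF-D, lower (-1.67 ± 0.40) and Pdgfc lower (-1.25 ± 0.26). Pdgfrb, a receptor of pericytes and mesenchyme, passed the adjusted p below 2-fold, at 62.4, 146, 139 and 192 CPM against 57.9, 67.7, 58.6 and 63.8 (0.94 ± 0.18). Pdgfra, whose product is CD140a, did not pass (-0.06 ± 0.18). The paper names Rspo1, Fgf9, Pdgfc and Igfbp5 as secreted factors of mesothelial cells, which are part of the other mesenchyme. Each was also called lower against mesothelial cells and against Barx1 and Tcf21 cells. The Barx1 and Tcf21 class did not leave out mesothelial cells. All 7 mesothelial markers tested against it were called lower too, with a median of -2.46. The part of mesothelial cells in the lower levels of Rspo1, Fgf9, Pdgfc and Igfbp5 was not tested.

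Of 31 matrix genes tested beside the gate collagens, 0 were called higher and 6 lower (Col12a1, Lum, Dcn, Fbln2, Nid2 and Mgp), with a median of -0.22. Among all genes tested, 2.12% were called lower and the median was -0.02. Dcn, the proteoglycan decorin, stood at 66.3, 528, 799.5 and 309 CPM against 237, 1143, 1731 and 567 (-1.27 ± 0.11), lower in 4 of 4 libraries. Mgp, an inhibitor of calcification, was at -2.69 ± 0.41. Fbln1, a fibulin, passed the adjusted p below 2-fold upward (0.51 ± 0.09), and Sparc, a collagen-binding protein, downward (-0.41 ± 0.08).

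Genes of the G2 and M phases of the cell cycle were above the other mesenchyme by less than 2-fold in these 4 libraries. All 15 listed were tested, 15 lay above 0, where 46.5% of all genes did, and 13 passed the adjusted p upward, where 1.95% of all genes did. The median was 0.60. Top2a, a topoisomerase of dividing cells, stood at 324, 326, 254 and 460.3 CPM against 178, 233, 134 and 261 (0.76 ± 0.10). Of 15 S phase genes, 14 lay above 0 and 4 passed the adjusted p, with a median of 0.30. The gated cells were deeper at E12.5, and with cells thinned to 2000 UMIs 12 of 15 G2/M genes lay above 0 and 2 passed, with a median of 0.56; without E12.5, 15 lay above 0 and 8 passed, without E14.5 batch 2, 15 and 7, and without the library block, 15 and 0. In the 6 cells of E17.5 the 15 genes summed to 74.6 CPM, with 14 of them at 0, against 835 in the other mesenchyme.

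**Figure D5:**
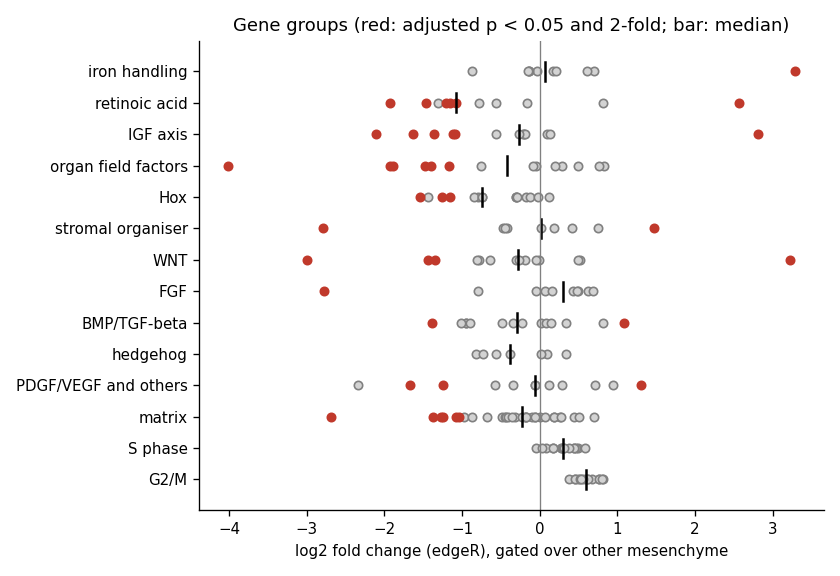
EdgeR log2 fold change between Nkx2-5/Tlx1 cells and other mesenchyme (horizontal axis) of the tested genes of 14 groups (vertical axis); red points passed an adjusted p of 0.05 at 2-fold and black bars are medians. The retinoic acid and Hox medians lie at -1.08 and -0.75, and the 15 G2/M genes lie above 0 without reaching 2-fold.

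Markers of other cell types were summed in both classes. In the 4 libraries tested, 10 epithelial markers summed to 68.2 to 382 CPM in the gated cells and 134 to 2765 in the other mesenchyme, 8 endothelial markers to 28.3 to 121 and 48.2 to 109.5, and 8 neural markers to 28.3 to 57.3 and 49.5 to 148. The endothelial gene Pecam1 had 1 UMI in the gated cells of the 5 libraries. Of 7 epithelial markers tested 6 were called lower, and against Epcam-negative cells 1 of 6, Krt7, was lower and 1, Sox9, higher. None of 6 smooth muscle, 3 endothelial, 5 immune or 7 erythroid markers tested was called, and Atf3 was called lower among 9 stress genes. Of 4 genes tested from the neural list, Stmn2, a stathmin of neurons, was called lower (-2.18 ± 0.19). Stmn2 was also found in mesenchymal classes. It stood at 92.1, 38.5, 149 and 77.2 CPM in the mesenchymal cells with Barx1 and Tcf21, and gave 88.9 of the 127 CPM of the neural sum in the other mesenchyme at E12.5 and 124 of 148 in E14.5 batch 2. The neural sum was thus mostly Stmn2 in these libraries and is no count of neural cells. In the v2 libraries Stmn2 did not pass (0.09 ± 0.43). Possible doublets are cells with UMIs of more than 1 gene of the epithelial, endothelial, immune or neural list. They were 2.49%, 13.5%, 6.19%, 38.6% and 0% of the gated cells and 5.66%, 25.1%, 9.34%, 48.8% and 6.12% of the other mesenchyme. This flag is passed more easily by deep cells and counts Stmn2, so it is no measured rate of doublets. Without the flagged cells 74 genes were called higher and 162 lower.

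Against mesenchymal cells with 2 or more UMIs of Barx1 and Tcf21 and no Epcam, a class gated at the same UMI number, 55 of 9517 genes tested (0.578%) were higher and 171 (1.8%) lower. Of the 52 genes higher against all other mesenchyme, 48 were tested here and 43 called higher. Both comparisons use the same gated cells, and the Barx1 and Tcf21 cells are part of the other mesenchyme. This overlap is therefore no repetition. The largest were Robo2 (3.23 ± 0.27), Apela (3.19 ± 0.37), Fam151a (3.19 ± 0.34), Frzb (3.10 ± 0.33), Slc40a1 (3.07 ± 0.25) and Kazald1 (3.01 ± 0.18). Kazald1 stood at 275, 451, 477 and 176 CPM against 56.6, 51.3, 48.9 and 10.3, with no overlap.

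The largest lower genes in that comparison were Tm4sf5, Epha1, Rspo1, Lhx9, Cav1 and Klk14. The comparison class did not leave out mesothelial cells, and all 7 mesothelial markers tested were called lower against it (median -2.46). Lhx9, a LIM homeodomain factor, stood at 0, 0, 0 and 8.07 CPM against 5.04, 8.34, 9.18 and 57.1 (-3.37 ± 0.50), from 4 UMIs in the gated cells. Outside Fev-Cre, Lhx9 was found only in the comparison cells, so its rank is no result about the gated cells. Cxcl13 did not pass (0.54 ± 0.38, edgeR, adjusted p = 0.555). Foxf1, Isl1 and Gata6 were called lower among the organ field factors, and Cyp26b1 was called higher, with Aldh1a2, Dhrs3, Rarb, Crabp1 and Crabp2 lower, among the retinoic acid genes. Without E14.5 batch 2, 127 genes were called in place of 226.

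The gated cells were also compared with mesothelial cells, which are Epcam-negative mesenchymal cells outside the gate with 2 or more UMIs of Upk3b, Upk1b and Lrrn4. Of 7100 genes tested, 326 (4.59%) were higher in the gated cells and 510 (7.18%) lower. Kazald1 stood at 275, 451, 477 and 176 CPM against 2.46, 6.85, 5.61 and 1.49 (6.41 ± 0.20). Clca3a1 (5.93 ± 0.40), Fabp7 (5.48 ± 0.43), Itga8 (5.37 ± 0.48) and Col13a1 (5.28 ± 0.43) were also among the 6 of largest fold upward.

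Among the largest lower genes, Angptl7, an angiopoietin-like protein, had 0 UMIs in the gated cells and 218 in the mesothelial cells, at least 27.6-fold lower against a floor of 3 counts over the group, and Tm4sf5, Klk13, Krt14, Kcna1 and Oprk1 had 1 to 5 UMIs in the gated cells. Angptl7 thus passed the count filter through the mesothelial cells only. The rank of these lower genes is therefore no result about the gated cells. Nkx2-3 and Tcf21 were called higher than in mesothelial cells and Wt1 lower (2.88 ± 0.22, 2.98 ± 0.20 and -1.31 ± 0.14). Cxcl12, Vcam1, Ltbr and Kitl were called higher among stromal organiser genes, and 13 of 29 matrix genes were called higher and 8 lower. Cxcl13 did not pass (1.13 ± 0.66).

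Gated cells with only 1 of the gate genes detected were also set side by side. This split uses the same UMIs as the rule, and the cells had medians of 1 to 2 UMIs of Nkx2-5 and 1 of Tlx1 in the 3 libraries with at least 10 cells of each kind (E12.5 and both E14.5 batches), so a gene not detected may still be expressed. Of 2309 genes tested, 5 (0.217%) were higher with Tlx1 alone than with Nkx2-5 alone and 2 (0.0866%) lower, but 0 were called without E12.5, 0 without E14.5 batch 2 and 19 without E14.5 batch 1. The levels are therefore given as a description. Slc40a1 stood at 203, 309 and 179 CPM against 376, 1457 and 657, with 467, 1547 and 442 in cells with both genes, and Cxcl13 at 0, 119 and 63.3 CPM against 8.09, 563 and 602, with 11.2, 780.5 and 488. Of the 5 higher genes 3 were globin genes, and the others were Smoc2 and Col6a1.

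The v2 libraries, which did not choose the cells, held 62 gated cells of 4659 mesenchymal cells at E12.5 (1.33%), 7 of 1111 at E14.5 (0.630%) and 9 of 2224 at E17.5 (0.405%). Cells with surface CD140a had been removed there, so these shares are not set against the others. Slc40a1 stood at 46.8, 389 and 77.0 CPM against 18.4, 15.2 and 4.92 (2.57 ± 0.41), Kazald1 at 116, 487 and 135 CPM against 5.23, 8.18 and 6.02 (4.61 ± 0.38) and Cxcl13 at 50.6, 292 and 269 CPM against 31.4, 64.5 and 85.3 (1.19 ± 0.36). All 3 were higher in 3 of 3 libraries and passed against all other mesenchyme (edgeR, adjusted p = 1.47e-07, 6.65e-30 and 0.034). Cxcl13 in v2 E12.5 came from 27 UMIs (50.6 CPM, exact 95% Poisson interval 33.3 to 73.6), and the share of cells with a UMI went the other way, with 4.84% of the thinned gated cells against 5.74% of the other mesenchyme. By gate UMIs, Cxcl13 there was at 69.5, 7.25 and 46.2 CPM in gated cells with 2, 3 and 4 or more, against 44.8 in Epcam-negative cells without one.

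Of 11312 genes tested in the v2 libraries, 96 (0.849%) were higher and 245 (2.17%) lower, and the median over all genes was -0.22. Of the 52 genes higher in the choosing libraries, 45 were tested in v2, 42 lay above 0, where 34.5% of the 10555 genes tested in both did, and 16 were called, 30.8% of the 52 and 16.7% of the 96. Among these were Slc40a1, Hmcn1, Itga8, Kctd12b, Clca3a1, Cyp26b1, Popdc3, Bves, Fabp7, Ets1, Trib2, Klhl6, Robo2, Lbh and Kazald1. Cyp26b1 was at 4.16 ± 0.72 from 7 UMIs, Clca3a1 at 4.15 ± 0.49, Itga8 at 2.68 ± 0.52 and Robo2 at 2.68 ± 0.55. Mme, Apela, Fam151a and Irf8 did not pass (0.99 ± 1.03, 0.35 ± 0.50, 1.16 ± 0.85 and 0.94 ± 0.76), and Grm7, Frzb and 6030408B16Rik were too low to be tested. Of the 234 lower genes, 232 were tested, 224 lay below 0, where 65.5% of all genes did, and 120 were called. Epithelial genes moved with these calls: of 9 epithelial markers tested 7 were called lower in v2, with a median of -2.71, and the 10 listed summed to 154, 97.3 and 539 CPM in the gated cells against 1474, 2396 and 1148. Possible doublets were 32.3%, 0% and 33.3% of the v2 gated cells and 50.03%, 57.9% and 64.7% of the other mesenchyme.

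The v2 test was therefore repeated against other mesenchyme without Epcam, an alternative added after the data were seen. Of 9687 genes tested, 43 (0.444%) were then higher and 141 (1.46%) lower, and 1 of 5 epithelial markers, Krt7, was lower. Of the 52 genes, 40 were tested there and 12 called higher, and of the 234, 215 were tested and 84 called lower. Slc40a1 (2.58) and Kazald1 (4.28) were called again, and Cxcl13 did not pass (0.82, edgeR, adjusted p = 0.32). Of the endothelial markers 3 could be tested there and 0 were called; Pecam1, Cldn5 and Emcn were too low to be tested. Of 7 smooth muscle markers 3 were called higher.

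By group, the v2 libraries repeated some directions and not others. Nkx2-3 (2.07 ± 0.42), Tcf21 (1.77 ± 0.49) and Pdgfrb (2.02 ± 0.41) were called higher, and all 8 mesothelial markers, Isl1, Gata6, Igfbp2, Igfbp5, Igfbp6, Igf1, Aldh1a2, Crabp1, Rbp4, Bmp4, Rspo1, Fgf9 and Pdpn were called lower. Against other mesenchyme without Epcam, 1 of 14 organ field factors was called higher, so Nkx2-3 and Tcf21 did not both keep their call. Calls among the matrix genes were partly those of the choosing libraries, with Dcn and Fbln2 lower in both. Of 30 tested in v2, Col4a1, Col4a2, Fbln5 and Bgn were called higher (1.76 ± 0.39, 1.69 ± 0.39, 1.94 ± 0.41 and 1.36 ± 0.36) and Dcn and Fbln2 lower, with a median of 0.09, against 0 higher, 6 lower and a median of -0.22 before; the difference was not tested. Against other mesenchyme without Epcam, 3 of the 30 were higher and 4 lower (Dcn, Fbln2, Nid2 and Ogn). Wt1 lay lower in the gated cells of all 3 v2 libraries, at 76.8, 129.8 and 86.6 CPM against 123, 189.6 and 167, and did not pass against all other mesenchyme (-0.93 ± 0.37, edgeR, adjusted p = 0.207) but was called lower against cells without Epcam, opposite to its direction over the choosing libraries. Of 14 Hox genes 0 were called and 5 lay above 0, with a median of -0.30. Of 15 G2/M genes 0 were called and 7 lay above 0, with a median of -0.13. Over all genes tested in v2, 34.1% lay above 0 and the median was -0.22. Neither the Hox nor the G2/M counts are therefore read as a direction of their own.

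Genes of endothelial and smooth muscle cells stood higher in some v2 gated cells, and epithelial genes lower. The endothelial genes Pecam1, Cldn5 and Emcn (2.52 ± 0.62, 2.75 ± 0.52 and 2.91 ± 0.55) and the smooth muscle genes Acta2, Tagln, Actg2 and Myl9 were called higher. Endothelial markers summed to 287, 32.4 and 48.1 CPM in the gated cells against 116, 126 and 113, and smooth muscle markers to 1299, 227 and 5638 against 274, 331 and 1916. Haemoglobin took 0.124%, 0.0779% and 22.1% of the UMIs of the gated cells against 1.47%, 2.01% and 4.11%, so it stood higher in the 9 gated cells of v2 E17.5 and lower in the other v2 libraries. Of 8 erythroid markers tested, 5 were called lower (Hba-a1, Hba-x, Hbb-bt, Hbb-bs and Hbb-y), with a median of -2.25. The part of these transcripts in the v2 calls was not tested. Pde1a, a phosphodiesterase, was among the 6 genes of largest fold upward (2.92 ± 0.56). The 6 of largest fold downward, Gsta3, P2rx1, Kcnk1, Foxa3, Cel and Nkx2-2, had 0 UMIs in the gated cells and were at least 3.82-fold (Nkx2-2) to 6.44-fold (Cel) lower, against a floor of 3 counts over the group. They passed the count filter through the other mesenchyme only, where cells with Epcam were allowed. Their rank is therefore no result about the gated cells. Libraries with 5 or more gated cells entered the v2 fit, a limit set after the cells were counted; it called 130 genes without v2 E12.5, 221 without v2 E14.5 and 205 without v2 E17.5, in place of 341.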

How the data were processed

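Single-cell libraries of dissociated embryonic mouse pancreas were analysed from the gene-by-cell UMI counts that the authors deposited, made by them with Cell Ranger 1.1 (version 1 kit) and 2.1 (version 2 kit) on mouse build mm10. The counts were not normalized further before deposit. Doublets had been gated by size at the sort, and no doublet caller was run. The matrix of the Fev-Cre library without reporter genes holds the same cells and was not used, and the 2 wells of v2 E17.5 were summed.

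Cells with at least 200 genes were kept. UMIs were summed per library and class, since cells are not replicates, and tested with edgeR 4.0.16 (quasi-likelihood, TMM, filterByExpr, library as a block, Benjamini-Hochberg over all genes tested) in R 4.3.3. The test gives no SE of its own. The SE printed is the absolute log2 fold change divided by the square root of the F statistic. It is approximate, above all for genes with few UMIs in a class. Intervals were computed with scipy 1.17.1 in Python 3.11.15. Classes needed 10 cells in a library; E17.5, with 6, was left out, and the v2 libraries were fitted with 5, both settled after the cells were counted. Same-library sums of the gated cells and other mesenchyme deviated together from their class means (correlations 0.44 to 0.75, against -0.44 to 0.07 for other pairs). Such sums share suspension, stage, strain, kit and batch, which cannot be told apart here.

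Named genes were the markers, the called genes of fixed lists with up to 4 others by UMIs, and the 12 (other comparisons: 6) called genes of largest fold in each direction that lay on one side in every library. The members and lists were chosen with earlier results of these data known. DESeq2 1.42.0, no filter, no block, thinning, other gates and leaving out each library were tried as alternatives. Those added after seeing the data were E17.5 with 5 or more cells, comparison cells without Epcam (v2 included), and the v2 fits. The scripts were tested on simulated data. Results for some genes are not reported here.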

Additional observations from a re-analysis of the deposited data

Results flagged for a closer look

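Cxcl13 moved in opposite directions between libraries. Its log2 ratio of gated cells over other mesenchyme, with 10 added to each CPM, was -1.28 at E12.5 and -0.92 in the Fev-Cre library, against 2.21 and 1.61 in the E14.5 Swiss Webster batches. Each of these sets holds 1 or 2 libraries, and the difference between them was not tested. Stage differs between E12.5 and the E14.5 batches, and the collection batch also differs between E12.5 and E14.5 batch 1. Strain, kit and sorting differ between Fev-Cre and the batches, so these cannot be told apart from one another. In the Swiss Webster libraries of the version 2 kit, Cxcl13 stood at 50.6 CPM in the gated cells against 31.4 at E12.5, 292 against 64.5 at E14.5 and 269 against 85.3 at E17.5. These libraries held 7 to 62 gated cells, had been depleted of cells with surface CD140a, and at E12.5 the share of cells with a Cxcl13 UMI was not higher. Against other mesenchyme without Epcam, the v2 difference did not pass (0.82, edgeR, adjusted p = 0.32).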

How the results depend on the processing

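Shares depended on depth and gate. Thinned to 2000 UMIs per cell they were 2.60% at E12.5, 2.09% and 1.19% in E14.5 batches 1 and 2 and 0.214% in Fev-Cre; with 3 or more gate UMIs they were 3.85%, 1.11%, 1.11%, 0.585% and, at E17.5, 0.0791%; with 10 or more collagen UMIs the E14.5 batches were at 1.85% and 1.92%. Without possible doublets, Slc40a1 and Kazald1 in the Fev-Cre gated cells were at 275 and 267 CPM. Counts of called genes moved as follows. Against the other mesenchyme, 286 became 172 in DESeq2 (47 higher, 125 lower) and 467 without the filter on low counts. Against Barx1 and Tcf21 cells, 226 became 360 without the filter, and against mesothelial cells 836 became 1665. In v2, 341 became 88 in DESeq2 and 184 against cells without Epcam, and between Tlx1 alone and Nkx2-5 alone 7 became 3 in DESeq2 and 25 without the filter. Without the replicate block, that is with the library pairing ignored, the counts were 5, 7, 639, 6 and 0, in that order. Leaving out 1 library at a time gave 194 to 364, 127 to 231 (127 without E14.5 batch 2), 743 to 1097, 130 to 221 and 0 to 19. Cxcl13 against Barx1 and Tcf21 cells turned to -0.10 in DESeq2 and ranged from -0.24 (without E14.5 batch 2) to 1.09 (without E12.5). The causes were not tested. Of the values of single named genes under these alternatives, 537 kept their direction and side of the threshold, 111 no longer passed, 9 newly passed and 2 reversed. With 6 gated cells at E17.5 and 7 to 62 in the v2 libraries, the counts limit which differences in low genes can be detected there.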

Other observations

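In the Fev-Cre library, eGFP transcripts stood at 18.2 CPM (exact 95% Poisson interval 8.31 to 34.5, 9 UMIs) in the Nkx2-5/Tlx1 cells and at 137 CPM in the other mesenchyme. The tdTomato transcript stood at 14.1 CPM (5.68 to 29.1, 7 UMIs) and 12.8 CPM. This library has no replicate, and the other mesenchyme includes cells with Epcam.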
